A study of Mus musculus with 32 samples.

Results

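The 10 genes described here, Trim3, Hpx, Syt9, Nlrp10, Adm, Rassf10, Rras2, Sox6, Plekha7 and Syt17, lie on mouse chromosome 7 within 10 Mb of Arntl, the gene that encodes the clock protein BMAL1. They were chosen by name, as genes around Arntl that rose in the lungs of Bmal1 knockout mice, and each was matched to 1 of the 41687 rows of the count table by its Ensembl gene identifier. Because the choice used the difference between knockout and wild type in these same libraries, that difference is given below as a description, and counts of calls among the 10 stand only beside the share called over all rows. The choice did not use the levels in the 3 library preparations or the sequences before the start sites, which are compared with the rest of the table. The other genes of the region are described beside the 10, but they are the ones left after the choice, so that comparison is not independent of it.

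Lungs came from 12 adult mice aged 8 to 18 weeks, 6 C57b/6 wild types (WT) and 6 Bmal1 knockouts (KO), bred in-house and labelled female. RNA of every mouse was made into a RiboZero library, in which ribosomal RNA is pulled down, and a PolyA library, in which tailed RNA is selected. RNA of mice 3 to 6 of each genotype was also made into NoSelect libraries, with no selection, which gave 32 libraries in 6 groups. The labels do not give the knockout allele, the number of backcrosses or the hour of sampling, and every KO mouse carries the chromosome segment that is linked to the targeted gene. A difference due to the loss of BMAL1 and a difference carried by that linked segment cannot be told apart in these groups.

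BMAL1 pairs with CLOCK or NPAS2 on E-box sequences and switches on the Period and Cryptochrome genes, whose proteins then hold the pair back, and this loop runs in lung as in most tissues. The protein also drives the nuclear receptors of the REV-ERB family, which repress further genes, so that genes can fall or rise when BMAL1 is lost. The genes around Arntl share a chromosome with it and not a pathway. Adm encodes adrenomedullin, a vasodilating peptide, and Hpx encodes hemopexin, a plasma protein that binds haem and is made mainly by the liver. Rras2 is a small GTPase of the Ras family and Rassf10 a member of the Ras association domain family. Nlrp10 belongs to the NOD-like receptors and Trim3 is a ubiquitin ligase with NHL repeats. Syt9 and Syt17 are synaptotagmins, proteins of membrane traffic, Plekha7 is a protein of the adherens junction and Sox6 a transcription factor of the SoxD group.

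Total estimated counts ran from 11638594 to 25801237 in RiboZero, from 29924325 to 41548830 in PolyA and from 74979802 to 115059756 in NoSelect libraries. In NoSelect libraries at least 67.8% of the counts fell on Lars2 and 1 transcript of Gm42418, so that at most 37100656 counts were left for other rows. The NoSelect library of KO mouse 6 is labelled Liver, but it held Alb, the main product of hepatocytes, at 0.391 CPM (counts scaled to a common library size). It held Sftpc, the surfactant gene of alveolar type 2 cells, at 5330 CPM, above the 3610 to 4940 CPM of the other NoSelect libraries. All 3 libraries of that mouse held the Y-linked gene Ddx3y, at 2195 counts or more, against the label female. Values without KO mouse 6 are given below where they differ. All CPM values here are on 1 scale, normalised by the trimmed mean of M values (TMM) over the 32 libraries.

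Arntl, which checks the labels, was lower in KO but not absent. Its level ran from 27.0 to 33.9 CPM in WT and from 15.2 to 18.7 CPM in KO RiboZero libraries, a log2 difference of -0.83 ± 0.0687 (SE, n = 6 per genotype). The difference was -0.69 ± 0.0494 in NoSelect and -0.27 ± 0.0612 in PolyA, and all 3 passed edgeR's quasi-likelihood test (adjusted p = 2.46e-05, 0.000451 and 0.0262 for RiboZero, NoSelect and PolyA). The groups did not overlap in RiboZero and NoSelect, and they did in PolyA.

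On build GRCm38 (GENCODE M21), Arntl lies at chr7:113207465-113314126 on the plus strand, and distances below run from its start to the start of each gene. Of the 10 genes, 6 start at lower coordinates. Hpx (chr7:105591613-105600137, minus strand) and Trim3 (chr7:105604463-105633571, minus strand) are direct neighbours of each other, 7.61 and 7.57 Mb before Arntl. Syt9 (chr7:107370728-107548656, plus strand) starts 5.84 Mb, Nlrp10 (chr7:108921852-108930178, minus strand) 4.28 Mb and Adm (chr7:110627661-110629820, plus strand) 2.58 Mb before it. Rassf10 (chr7:112953962-112957457, plus strand), which has 1 exon, starts 0.25 Mb before Arntl and is the closest of the 10. Beyond Arntl lie Rras2 (chr7:114046782-114117781, minus strand) at 0.91 Mb, Sox6 (chr7:115470872-116038796, minus strand) at 2.83 Mb, Plekha7 (chr7:116123485-116308376, minus strand) at 3.1 Mb and Syt17 (chr7:118380717-118448222, minus strand) at 5.24 Mb. No exon of the 10 overlaps an exon of another annotated gene on either strand. At most 0.824% of the 31-base words of a gene's exons occur in another gene, the highest share being that of Adm.

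The sequences before the start sites are shown because the 10 genes were chosen for a shared KO difference and BMAL1 binds E-boxes. RefSeq's table of promoters (GRCm38.p6) matched 5 of the 10 by symbol, Hpx, Syt9, Adm, Rras2 and Sox6, and did not list Trim3, Nlrp10, Rassf10, Plekha7 or Syt17. Each stretch below runs 5′ to 3′ on the gene's strand and stops before the first annotated exon, and capitals mark the general E-box CANNTG, where N is any base. The stretches are chr7:105600138-105600366 (Hpx, minus strand), chr7:107370540-107370727 (Syt9, plus strand), chr7:110627407-110627656 (Adm, plus strand), chr7:114117782-114118031 (Rras2, minus strand) and chr7:116038797-116038994 (Sox6, minus strand).
Hpx: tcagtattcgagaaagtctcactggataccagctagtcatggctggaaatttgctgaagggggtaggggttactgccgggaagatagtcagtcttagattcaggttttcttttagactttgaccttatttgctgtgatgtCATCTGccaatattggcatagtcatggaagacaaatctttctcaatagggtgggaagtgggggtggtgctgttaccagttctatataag
Syt9: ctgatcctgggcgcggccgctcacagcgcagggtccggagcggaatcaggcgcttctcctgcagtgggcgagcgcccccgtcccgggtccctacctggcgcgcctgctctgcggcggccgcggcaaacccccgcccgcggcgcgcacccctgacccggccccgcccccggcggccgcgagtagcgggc
Adm: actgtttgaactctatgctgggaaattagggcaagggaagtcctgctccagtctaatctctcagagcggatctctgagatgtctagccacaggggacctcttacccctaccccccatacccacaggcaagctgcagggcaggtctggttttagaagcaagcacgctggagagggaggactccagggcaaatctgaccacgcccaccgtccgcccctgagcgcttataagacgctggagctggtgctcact
Rras2: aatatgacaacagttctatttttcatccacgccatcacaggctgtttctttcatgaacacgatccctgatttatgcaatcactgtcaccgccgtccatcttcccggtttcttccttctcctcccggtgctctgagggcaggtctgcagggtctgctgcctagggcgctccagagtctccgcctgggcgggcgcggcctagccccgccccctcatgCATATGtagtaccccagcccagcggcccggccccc
Sox6: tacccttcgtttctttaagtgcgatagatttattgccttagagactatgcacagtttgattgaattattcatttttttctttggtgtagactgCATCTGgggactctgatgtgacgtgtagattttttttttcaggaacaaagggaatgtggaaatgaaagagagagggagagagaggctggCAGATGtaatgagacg
The canonical E-box CACGTG was in 0 of these 5 windows, against 6.02% of 32851 promoter windows in the table, searched on both strands over the 250 bases before the start. The variant CACGTT (3.85% of all windows), the core of the ROR element TAGGTCA (2.23%) and the D-box TTATGTAA (0.819%) were also in 0 of 5. The general E-box CANNTG, which the first motif also matches, was in 3 of 5 (Hpx, Rras2 and Sox6) and in 66.2% of all windows. The 5 stretches share little in base composition, since G and C made up 79.8% of the Syt9 stretch and 39.4% of the Sox6 stretch. The absence of a motif says only that those letters are not in these windows.

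Levels between genes were compared as CPM per kb of exon, in WT libraries. In RiboZero, Trim3 stood highest at 19.0 ± 0.698 CPM per kb (SD, n = 6), followed by Rras2 at 11.1 ± 1.28 and Adm at 3.96 ± 1.1. Plekha7 (1.06 ± 0.236), Rassf10 (0.905 ± 0.228), Hpx (0.601 ± 0.149), Sox6 (0.544 ± 0.0696) and Syt17 (0.397 ± 0.0893) came next. Each of these 5 overlapped its neighbour in the order, so their order is not separated from the spread between mice. Syt9 (0.215 ± 0.0418) and Nlrp10 (0.117 ± 0.0317) were lowest, and the WT ranges of Syt17, Syt9 and Nlrp10 did not overlap each other. The ubiquitin ligase and the GTPase thus stood well above the others, and Nlrp10 rested on 7 to 40 counts per RiboZero library. The order in NoSelect was the same from first to last. In PolyA, Hpx stood higher in the order, above Plekha7, at 1.44 ± 0.217 CPM per kb, and Sox6 lower, below Syt17, at 0.213 ± 0.0573.

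The fold of KO over WT differed more among the 10 than between preparations. All 10 passed the filter on low counts in each preparation, all 10 had a positive log2 difference in each, and the median was 0.75 in RiboZero, 0.76 in PolyA and 0.70 in NoSelect, where the median over all rows tested was within 0.0029 of 0. The smallest was that of Trim3, at 0.26 to 0.33, and the largest were those of Syt17 and Syt9, up to 1.18 and 1.21. At an adjusted p under 0.05 in edgeR, 10 were called higher in RiboZero, where 1.84% of all rows were, 9 in PolyA, where 1.62% were, and 7 in NoSelect, where 1.19% were. Of the 10, 6 were called higher in all 3 preparations, against 0.621% of the rows tested in all 3, and a positive difference in all 3 was found for 31.8% of those rows. Without KO mouse 6 the counts were 8, 9 and 5. These counts follow from the choice of genes and nothing is read from them. The rows not called were Sox6 in PolyA and Hpx, Nlrp10 and Plekha7 in NoSelect. Every KO library lay above every WT library for 6 genes in RiboZero, for 6 in PolyA and for 8 in NoSelect, against 1.42%, 1.82% and 5.09% of all rows. The plot of CPM by library shows these values for each gene.

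**Figure D1:**
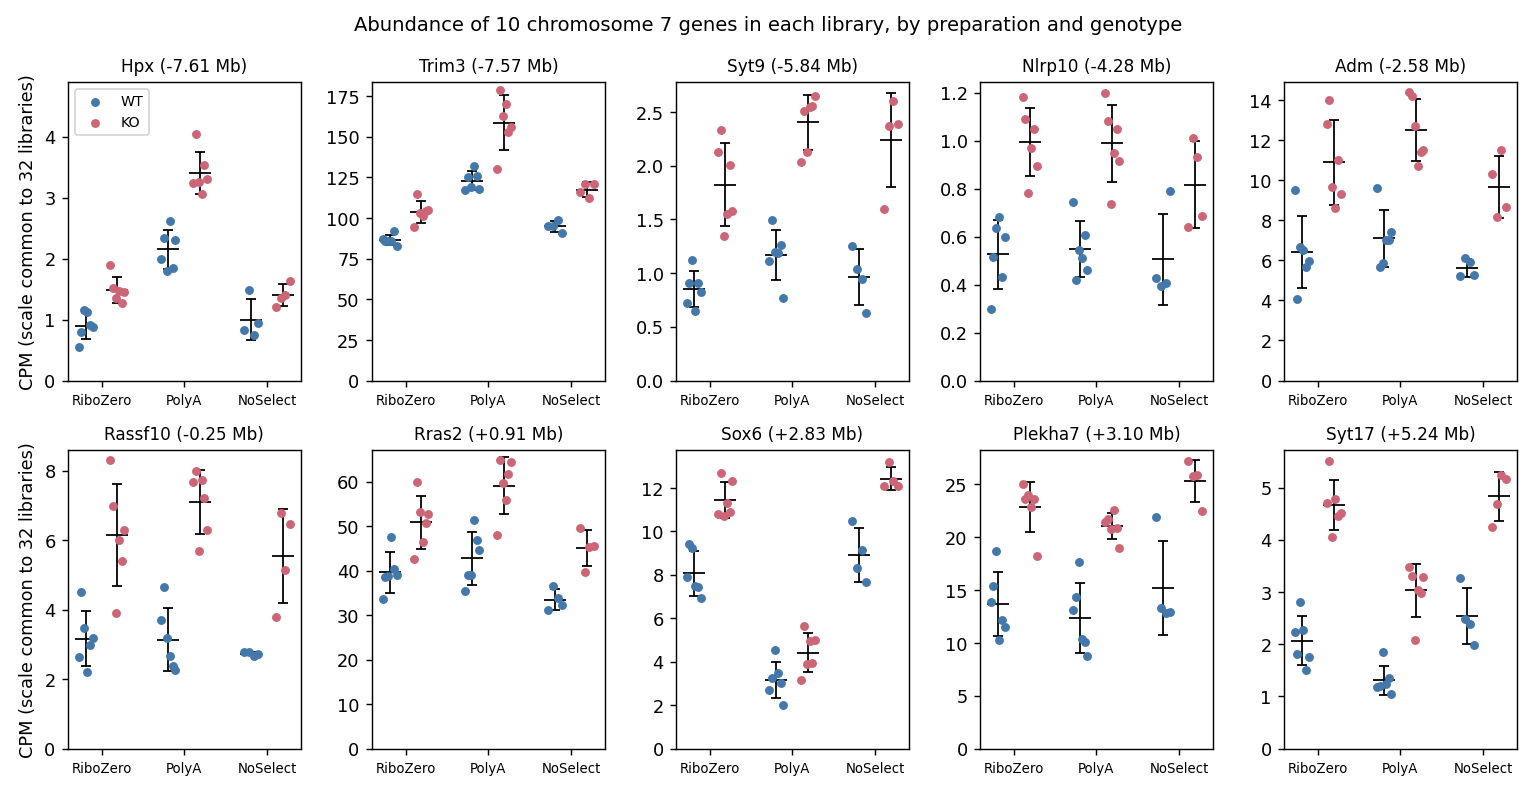
CPM of each of the 10 genes in every library (points; 6 mice per genotype in RiboZero and PolyA, 4 in NoSelect), with the mean and SD of each group (bar and whiskers) and the distance from Arntl in each title; the vertical axes start at 0 and differ in scale. KO means lie above WT means in every panel, and the points overlap most for Sox6 in PolyA, where 3 WT libraries lie above the lowest KO library, and for Hpx and Nlrp10 in NoSelect. The levels run from Nlrp10 at up to 1.2 CPM to Trim3 at up to 179 CPM.

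Of the 2 genes with secreted products, Adm was the more abundant. In RiboZero its lowest, median and highest values were 4.08, 6.23 and 9.53 CPM in WT and 8.6, 10.3 and 14.0 CPM in KO, and in PolyA they were 5.65, 7.04 and 9.61 CPM in WT and 10.7, 12.1 and 14.4 CPM in KO. The NoSelect values were 5.22, 6.12, 5.93 and 5.27 CPM in WT mice 3 to 6 and 10.3, 8.14, 11.5 and 8.67 CPM in KO mice 3 to 6. WT mouse 1 was the high one in both preparations it was in (9.53 and 9.61 CPM), and it alone overlapped the KO range, in RiboZero. The log2 difference of Adm was 0.76 ± 0.178 (SE) in RiboZero, 0.78 ± 0.126 in PolyA and 0.77 ± 0.123 in NoSelect.

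Hpx was low in these lungs. It lay at 0.551, 0.89 and 1.16 CPM (lowest, median, highest) in WT and 1.27, 1.47 and 1.89 CPM in KO RiboZero libraries, on 13 to 64 counts. PolyA libraries held more of it, at 1.8, 2.15 and 2.62 CPM in WT and 3.06, 3.28 and 4.04 CPM in KO. The NoSelect values were 0.823, 1.48, 0.753 and 0.946 CPM in WT and 1.2, 1.36, 1.4 and 1.64 CPM in KO mice 3 to 6. The genotypes separated in RiboZero and PolyA, and in NoSelect WT mouse 4 lay above 3 of the 4 KO mice. The log2 differences were 0.72 ± 0.18, 0.63 ± 0.114 and 0.49 ± 0.231 in RiboZero, PolyA and NoSelect. Summed over 8 hepatocyte genes, the level was 3.08 to 6.42 CPM in WT and 2.27 to 7.87 CPM in KO RiboZero libraries, so that the ranges overlapped. Only 2, 3 and 3 of the 8 passed the filter in RiboZero, PolyA and NoSelect, and none of these was called. Most of the sum was Cyp2e1 (3.72 and 3.78 CPM on average in WT and KO RiboZero libraries), and Tat was at 0.845 and 0.323 CPM (adjusted p = 0.103 in edgeR).

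The 2 genes of Ras signalling differed in level and in fold. Rras2 lay at 33.5, 38.8 and 47.5 CPM in WT and 42.7, 51.6 and 59.8 CPM in KO RiboZero libraries, and at 35.4, 41.8 and 51.4 against 48.0, 60.7 and 64.8 CPM in PolyA. In NoSelect it was at 31.2, 36.6, 33.8 and 32.3 CPM in WT and 49.6, 39.7, 45.2 and 45.6 CPM in KO mice 3 to 6. WT mouse 4 was the highest WT mouse in all 3 preparations and reached into the KO range in RiboZero and PolyA, and KO mouse 1 was the lowest KO mouse in both. The log2 differences of Rras2 were 0.36 ± 0.0881, 0.43 ± 0.092 and 0.43 ± 0.0735.

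Rassf10, the gene closest to Arntl, was among the 3 genes with the largest differences in each preparation. It lay at 2.21, 3.08 and 4.52 CPM in WT and 3.91, 6.15 and 8.3 CPM in KO RiboZero libraries, and at 2.26, 2.92 and 4.65 against 5.68, 7.44 and 8.0 CPM in PolyA. In NoSelect the 4 WT values lay close together, at 2.78, 2.77, 2.67 and 2.71 CPM, and the KO values spread over 3.8, 6.77, 5.13 and 6.48 CPM. KO mouse 3 was the lowest KO mouse in each preparation, and in RiboZero it fell below WT mouse 2. The log2 differences were 0.96 ± 0.192, 1.14 ± 0.173 and 1.02 ± 0.175.

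Nlrp10 was the lowest of the 10 per kb and Trim3 the highest, and the fold was larger in the former. Nlrp10 lay at 0.297, 0.556 and 0.68 CPM in WT and 0.783, 1.01 and 1.18 CPM in KO RiboZero libraries, and at 0.419, 0.528 and 0.743 against 0.734, 1.0 and 1.2 CPM in PolyA. In NoSelect it was at 0.426, 0.396, 0.408 and 0.788 CPM in WT and 0.64, 1.01, 0.932 and 0.684 CPM in KO mice 3 to 6, so that WT mouse 6 lay above 2 KO mice. Its log2 differences were 0.91 ± 0.198, 0.81 ± 0.166 and 0.68 ± 0.288, and its counts ran only from 7 to 66 per library.

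Trim3 had the smallest fold, and its WT libraries lay close together. It lay at 82.6, 85.9 and 92.3 CPM in WT and 94.2, 104.0 and 115.0 CPM in KO RiboZero libraries. In PolyA the values were 117.0, 122.0 and 132.0 CPM in WT and 130.0, 159.0 and 179.0 CPM in KO. In NoSelect they were 94.9, 95.3, 98.8 and 90.8 CPM in WT and 116.0, 121.0, 112.0 and 121.0 CPM in KO mice 3 to 6. The WT coefficient of variation was 3.68% in RiboZero and 4.62% in PolyA, the lowest of the 10 in both. In NoSelect it was 3.45%, and that of Rassf10 was lower, at 1.99%. The log2 differences of 0.26 ± 0.0442, 0.33 ± 0.0624 and 0.30 ± 0.0401 separated the genotypes in RiboZero and NoSelect, and in PolyA only 1 WT library passed the lowest KO library.

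Both synaptotagmins were low and about 2-fold higher in KO. Syt9 lay at 0.646, 0.867 and 1.12 CPM in WT and 1.35, 1.8 and 2.33 CPM in KO RiboZero libraries, and at 0.765, 1.2 and 1.49 against 2.03, 2.53 and 2.65 CPM in PolyA. In NoSelect the values were 1.25, 1.04, 0.941 and 0.631 CPM in WT and 1.6, 2.37, 2.6 and 2.39 CPM in KO mice 3 to 6. No WT library reached a KO library in any preparation, and the folds were 2.13, 2.01 and 2.31 in RiboZero, PolyA and NoSelect.

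Syt17, at the other end of the region, lay at 1.51, 2.03 and 2.8 CPM in WT and 4.06, 4.6 and 5.5 CPM in KO RiboZero libraries, and at 1.05, 1.21 and 1.84 against 2.08, 3.16 and 3.48 CPM in PolyA. Its NoSelect values were 3.27, 2.48, 2.38 and 1.99 CPM in WT and 4.24, 4.68, 5.24 and 5.16 CPM in KO mice 3 to 6. The genotypes did not overlap in any preparation. WT mouse 3 was the highest WT mouse and KO mouse 3 the lowest KO mouse in each preparation, and the folds were 2.25, 2.26 and 1.9.

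Plekha7, the junction protein gene, lay at 10.3, 13.0 and 18.7 CPM in WT and 18.2, 23.6 and 25.0 CPM in KO RiboZero libraries, and at 8.74, 11.7 and 17.7 against 19.0, 21.1 and 22.6 CPM in PolyA. In NoSelect it was at 21.9, 13.3, 12.8 and 12.9 CPM in WT and 27.2, 25.8, 25.9 and 22.5 CPM in KO mice 3 to 6. WT mouse 3 was the highest and KO mouse 6 the lowest of its genotype in all 3 preparations. In RiboZero the former lay just above the latter, and in PolyA and NoSelect the genotypes did not overlap. The log2 differences were 0.74 ± 0.129, 0.74 ± 0.144 and 0.73 ± 0.174, the most even of the 10 across preparations.

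Sox6, the transcription factor gene, lay at 6.94, 7.68 and 9.44 CPM in WT and 10.7, 11.1 and 12.7 CPM in KO RiboZero libraries. In NoSelect the values were 10.5, 8.31, 9.16 and 7.66 CPM in WT and 12.1, 13.2, 12.3 and 12.1 CPM in KO mice 3 to 6. In PolyA they were lower, at 1.99, 3.13 and 4.53 CPM in WT and 3.14, 4.44 and 5.64 CPM in KO, and 3 WT libraries lay above the lowest KO library. The log2 differences were close, at 0.50 ± 0.0847, 0.45 ± 0.183 and 0.48 ± 0.097 in RiboZero, PolyA and NoSelect, and the error in PolyA was the largest.

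Distance from Arntl and fold did not go together among the 10. Over the 10 genes, the Pearson correlation of absolute distance with the log2 difference was 0.01 in RiboZero, -0.16 in PolyA and -0.18 in NoSelect (Spearman's rho -0.03, -0.12 and -0.14). Rassf10 at 0.25 Mb and Syt17 at 5.24 Mb had differences of 0.96 and 1.17 in RiboZero, and Rras2 at 0.91 Mb had 0.36. The log2 WT level per kb and the log2 difference were correlated at -0.77, -0.58 and -0.59 (rho -0.68, -0.59 and -0.50). The WT values enter both measures, and a gene with few counts needs a larger difference to be called, so nothing is read from that sign. Distance and level were unrelated, at -0.11, 0.02 and -0.06. The points share their libraries and were chosen for the difference itself, so these are descriptions of 10 chosen genes.

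**Figure D2:**
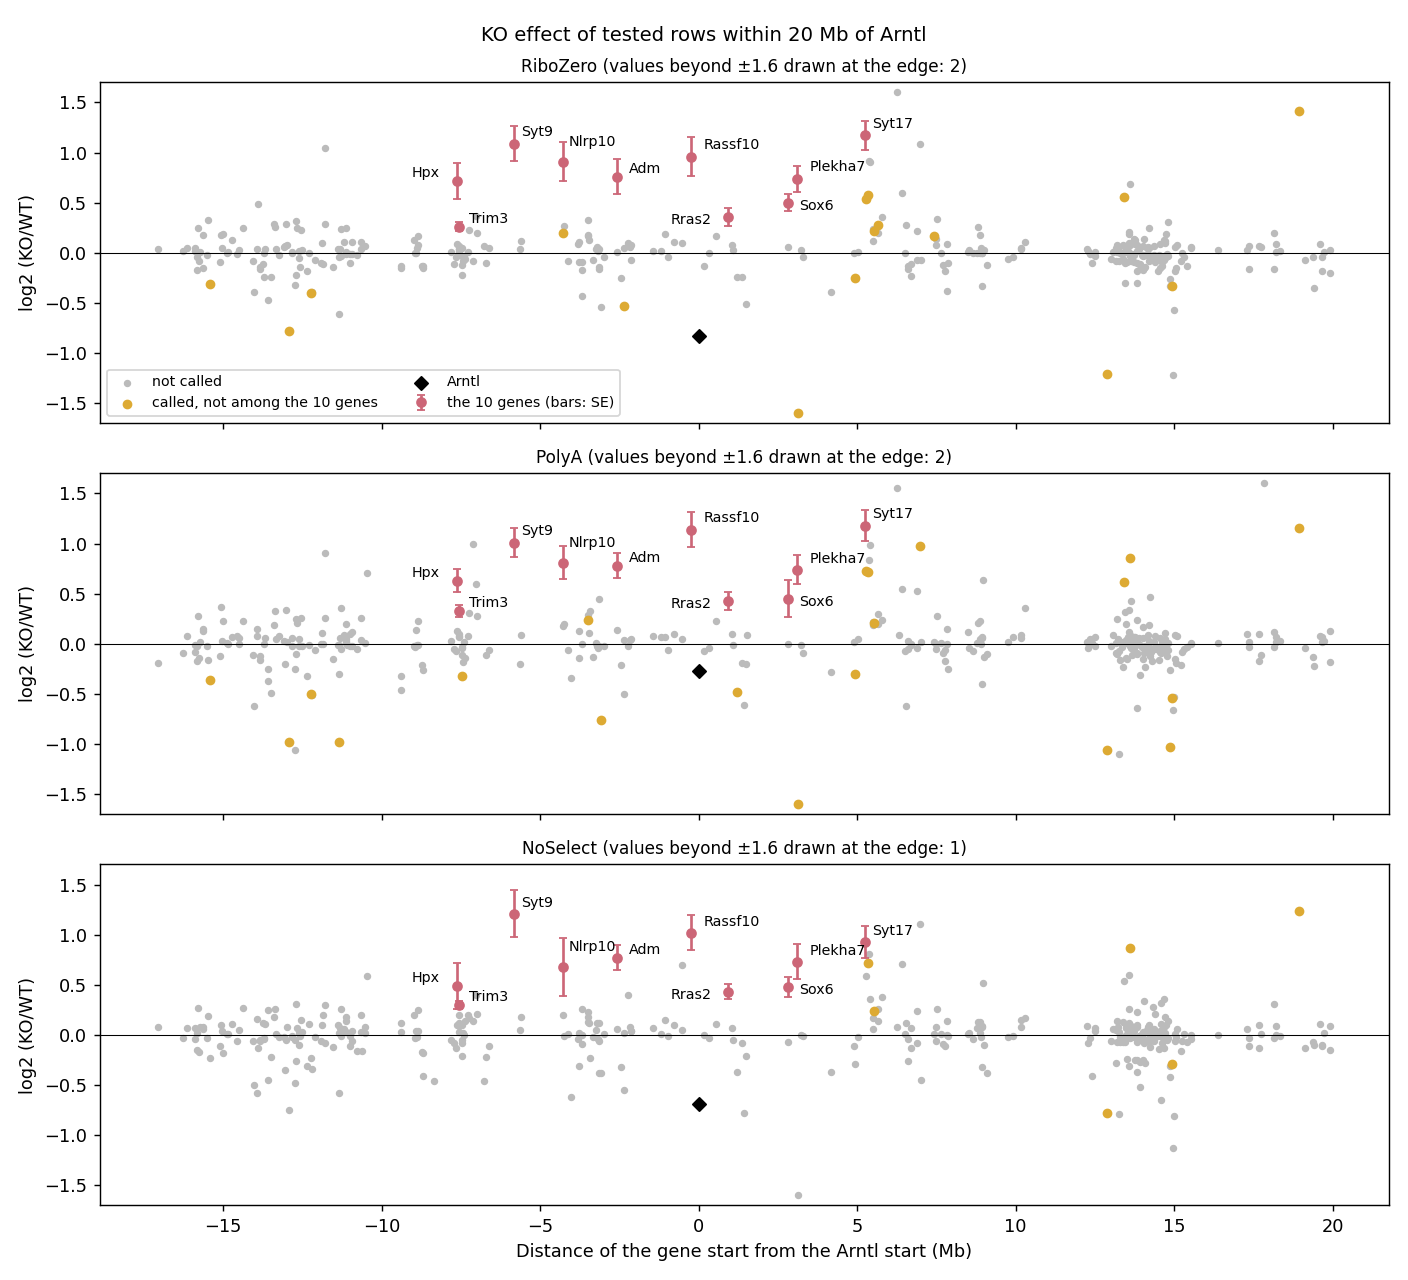
Log2 difference of KO and WT against distance from Arntl for all tested rows within 20 Mb, in the 3 preparations: the 10 genes (red, bars are SE), other rows called at an adjusted p under 0.05 (orange), rows not called (grey) and Arntl (black diamond). The 10 genes lie between 0.26 and 1.21 on both sides of Arntl with no slope by distance, and most grey points lie near 0.

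Most genes of the region did not share the difference. Within 10 Mb of Arntl, 16 of 145 tested rows (11%) were called higher in RiboZero, 14 of 145 (9.66%) in PolyA and 9 of 151 (5.96%) in NoSelect, and without the 10 genes these were 6 of 135 (4.44%), 5 of 135 (3.7%) and 2 of 141 (1.42%). The share over all chromosomes was that given above (1.84%, 1.62% and 1.19%). From 10 to 20 Mb it was 0.909%, 1.3% and 0.866%, and on the rest of chromosome 7 it was 1.38%, 1.41% and 0.976%. The median log2 difference of all rows within 10 Mb was 0.03, 0.024 and 0.031. Leaving out KO mouse 6 gave 12, 13 and 9 rows.

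**Figure D3:**
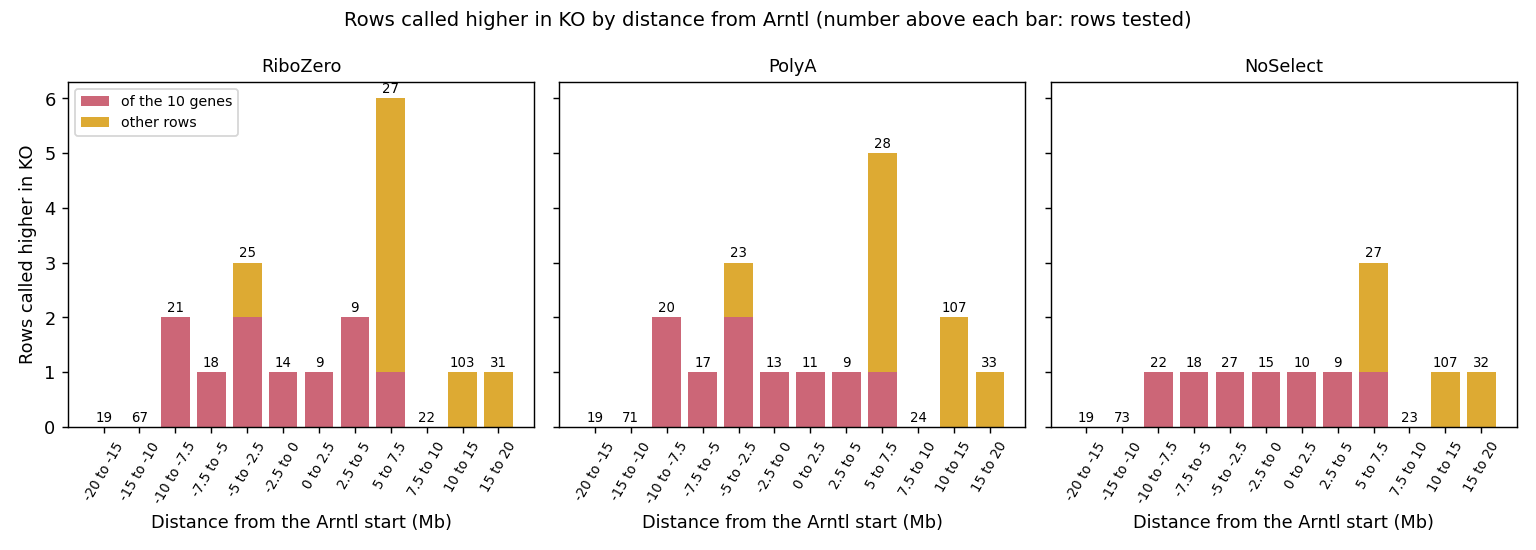
Number of rows called higher in KO (edgeR, adjusted p under 0.05) in bins of distance from Arntl, in each preparation, split into the 10 genes (red) and other rows (orange); the number above a bar is the number of rows tested. Other rows called higher within 10 Mb sit mainly 5 to 7.5 Mb after Arntl, where they number 5, 4 and 2 in RiboZero, PolyA and NoSelect.

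The other rows called higher started mostly 5 to 7.5 Mb after Arntl, the bin that also holds Syt17. Of those called higher without being among the 10, 5 of the 6 in RiboZero, 4 of the 5 in PolyA and both in NoSelect started there. They made up 19.2%, 14.8% and 7.69% of the 26, 27 and 26 tested rows of that bin outside the 10. Over all rows, 1.84%, 1.62% and 1.19% were called higher. Coq7, a hydroxylase of ubiquinone synthesis, starts at 5.33 Mb and rose in each preparation, by 0.58 ± 0.113 in RiboZero, 0.72 ± 0.115 in PolyA and 0.72 ± 0.127 in NoSelect in log2 units (edgeR adjusted p = 0.0138, 0.00413 and 0.0264). Vps35l, a subunit of the retriever complex of endosomes, starts at 5.53 Mb and rose by 0.22 ± 0.0431, 0.21 ± 0.0364 and 0.24 ± 0.0476 (edgeR adjusted p = 0.0158, 0.00689 and 0.0395). They were the only other rows within 10 Mb called in all 3 preparations. Every KO library passed every WT library for Vps35l in each preparation and for Coq7 in PolyA and NoSelect. The NoSelect calls rest on few mice. That of Coq7 was lost without any 1 of KO mice 4 and 5 and WT mice 4, 5 and 6 (log2 differences of 0.68 to 0.77), and that of Vps35l without any 1 of KO mice 3, 4, 5 and 6 and WT mice 4, 5 and 6 (0.22 to 0.25).

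Itpripl2, at 5.28 Mb, rose in RiboZero (0.54 ± 0.132) and PolyA (0.73 ± 0.148), and its NoSelect difference was 0.59 with an adjusted p of 0.0586 in edgeR. In RiboZero the others were Knop1, Uqcrc2 and Eif3f, a subunit of a translation initiation factor, at 0.28, 0.17 and 0.20. In PolyA they were Akip1 (0.24) and Crym, which encodes a thyroid hormone-binding protein (0.98). Knop1 starts 5.65 Mb, Crym 6.99 Mb and Uqcrc2 7.43 Mb after Arntl. Rows called lower within 10 Mb numbered 3 in RiboZero, 5 in PolyA and 0 in NoSelect, beside 6, 5 and 2 called higher outside the 10 genes. They included Lyve1, a receptor of lymphatic endothelium, in RiboZero (-0.53 ± 0.113), Wee1, a kinase that restrains mitosis and a known clock target, in PolyA (-0.76 ± 0.193), and Arl6ip1 in both (-0.25 and -0.30). Rps13 was also lower, at -2.58 ± 0.454 in RiboZero and -1.93 ± 0.158 in PolyA (edgeR adjusted p = 0.0074 and 1.96e-05). Its NoSelect difference of -2.07 ± 0.699 was not called (edgeR adjusted p = 0.2). Rps13 encodes a ribosomal protein with near-identical pseudogene copies. Whether these share its reads was not tested, so its value is uncertain.

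The genes right beside the 10 were mostly not called. The nearest tested genes on both sides of each, with the 10 and Arntl left out, make 17 distinct genes. Of these, 14 were called in no preparation and 0 were called higher in all 3. The 2 called higher in at least 1 were Eif3f and Itpripl2, and Rps13 was called lower in RiboZero and PolyA. Over all rows, 1.84%, 1.62% and 1.19% were called higher in RiboZero, PolyA and NoSelect, and 1.63%, 2.41% and 0.981% lower. Arntl and Rassf10 are next to each other among the tested genes. Tead1 and Btbd10, the tested genes on either side of that pair, had log2 differences of 0.10 and -0.13 in RiboZero (edgeR adjusted p = 0.561 and 0.272). The pair of Hpx and Trim3 is flanked by Apbb1 (0.09 in RiboZero, adjusted p = 0.601) and Timm10b (0.07, adjusted p = 0.723, both edgeR). The gene 1110004F10Rik starts 0.601 kb from the start of Sox6 and differed by 0.06, 0.00 and -0.07 in RiboZero, PolyA and NoSelect (edgeR adjusted p = 0.462, 0.995 and 0.658). Copb1, the next tested gene after Rras2, differed by 0.08, 0.10 and 0.07.

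By chromosome, 29 of 1164 chromosome 7 rows (2.49%) were called higher in RiboZero, 29 of 1227 (2.36%) in PolyA and 19 of 1203 (1.58%) in NoSelect. The called ones among the 10 genes are part of these counts. Over all rows the shares were 1.84%, 1.62% and 1.19%. Other chromosomes had the highest share in each preparation. These were chromosome 10 in RiboZero (2.64%), chromosome 5 in PolyA (2.62%) and chromosome 18 in NoSelect (2.41%).

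The preparation, which played no part in the choice of the 10, changed the level of 2 of them past a log2 difference of 1 at an adjusted p under 0.05 in edgeR. Hpx was higher in PolyA than in RiboZero by 1.22 ± 0.1 (adjusted p = 3.6e-11, edgeR) and than in NoSelect by 1.24 ± 0.118 (adjusted p = 4.75e-09, edgeR). Sox6 was lower in PolyA than in RiboZero by a log2 difference of -1.36 ± 0.105 (adjusted p = 9.95e-12, edgeR) and than in NoSelect by -1.45 ± 0.117 (adjusted p = 3.4e-10, edgeR). PolyA libraries thus held 2.33-fold more Hpx than RiboZero libraries, and RiboZero libraries held 2.57-fold more Sox6 than PolyA libraries. Over both genotypes, Hpx ran from 0.551 to 1.89 CPM in the 12 RiboZero libraries and from 1.8 to 4.04 CPM in the 12 PolyA libraries, and Sox6 from 6.94 to 12.7 and from 1.99 to 5.64 CPM. The ranges of Sox6 did not overlap, and those of Hpx did at their ends.

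Such differences were common. Of all tested rows, 23.6% passed both limits between PolyA and RiboZero (7% higher and 16.6% lower in PolyA) and 25.1% between PolyA and NoSelect (10% higher and 15.1% lower), against 2 of the 10 genes in each. Sox6 has 14832 bases of exon over a span of 567.9 kb, and Hpx has 1499 bases over 8.5 kb, the longest and the shortest exon length among the 10. Next in length at either end were Plekha7 (12933 bases) and Adm (1619 bases), which differed by -0.13 and 0.18 between PolyA and RiboZero. A relation of length to these differences was not tested. Between RiboZero and NoSelect, 0 of the 10 passed both limits, where 4.3% of all rows did. In that comparison Trim3 (-0.16 ± 0.0309, adjusted p = 0.000277 in edgeR) and Rras2 (0.21 ± 0.064, adjusted p = 0.0119 in edgeR) passed the p limit alone, where 45.9% of all rows did. Syt17 was lower in PolyA by -0.64 ± 0.103 against RiboZero and -0.77 ± 0.116 against NoSelect, and Trim3 higher by 0.56 ± 0.0419 and 0.44 ± 0.043, both under the limit on size, where 81.1% and 79.1% of all rows passed the p limit alone. The same mice were used in each preparation, and the fit with the mouse as a block called the same 2 genes past both limits. By the p limit alone, the block raised the number of the 10 that passed from 2 to 6 between RiboZero and NoSelect, where Plekha7 (-0.21), Sox6 (-0.16), Syt9 (-0.33) and Syt17 (-0.19) joined (edgeR adjusted p = 0.000128, 0.00247, 0.0379 and 0.0383) and 57.8% of all rows passed. It raised that number from 6 to 8 between PolyA and RiboZero and from 7 to 8 between PolyA and NoSelect, where Rassf10 no longer passed (adjusted p = 0.105 in edgeR with the block).

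**Figure D4:**
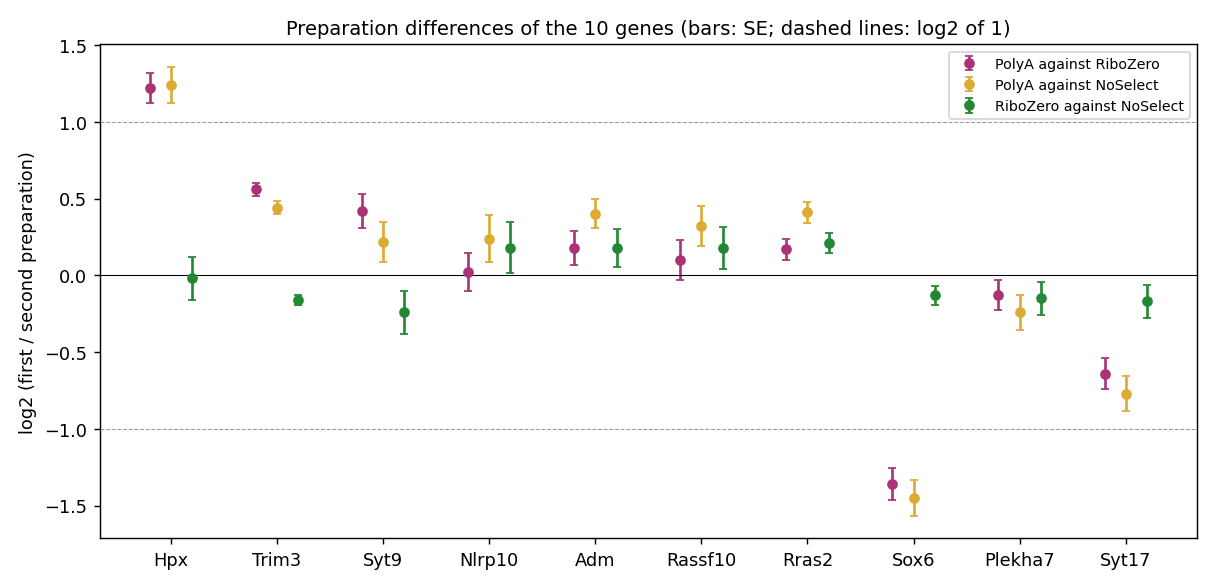
Log2 difference between preparations for each of the 10 genes (points, with SE bars; both genotypes together, genotype in the fit); dashed lines mark a log2 difference of 1 in size. Hpx lies above and Sox6 below the lines in both comparisons with PolyA, and every RiboZero against NoSelect point lies within 0.24 of 0.

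The difference between KO and WT was not found to depend on the preparation for any of the 10. In edgeR's test of the interaction term, 0 of 10 passed an adjusted p of 0.05 in each of the 3 pairs of preparations. In this fit, which leaves the mouse out, the interaction passed for 0 rows of the whole table too, although 412 rows or 2.24% (PolyA against NoSelect), 244 rows or 1.39% (RiboZero against NoSelect) and 331 rows or 1.82% (PolyA against RiboZero) had an unadjusted p under 0.05. With the mouse as a block, 0 of the 10 passed in any pair, and among all tested rows 0, 1 and 1 did in the same order of pairs. The row between PolyA and RiboZero was Arntl itself, whose difference was 0.57 ± 0.0533 nearer to 0 in PolyA (adjusted p = 0.000474 in edgeR with the block, 0.11 without it). Without the block, the change in log2 difference among the 10 was at most 0.24 in size, that of Syt17 between RiboZero and NoSelect (0.24 ± 0.216, SE). With the block it reached -0.33 ± 0.24 for Syt9 in that pair and 0.29 ± 0.173 for Rassf10 between PolyA and NoSelect. The values that follow are without the block. The change was measured most closely for Trim3, at -0.05 ± 0.0628 between RiboZero and NoSelect. For Sox6 and Hpx, whose levels depended most on PolyA selection, the changes between PolyA and RiboZero were -0.03 ± 0.213 and -0.08 ± 0.201. The libraries of the 3 preparations come from the same mice, so they repeat the measurement and not the animals.

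How well mice kept their place across preparations differed by gene and by pair of preparations. After the mean of each genotype and preparation was taken off, the deviations of the 12 mice in PolyA and RiboZero were correlated at 0.89 for Rras2, 0.88 for Plekha7, 0.83 for Adm and 0.75 for Sox6, and at 0.12 for Syt9, 0.03 for Hpx and -0.04 for Nlrp10. The last 3 are the 3 lowest of the 10 genes by WT CPM in RiboZero. Over the 8 mice in PolyA and NoSelect, Plekha7 reached 0.95, Syt9 0.82, Hpx 0.80 and Nlrp10 0.09. Between RiboZero and NoSelect, Syt9 was at 0.52, Nlrp10 at 0.32 and Hpx at 0.29. These are descriptions, since the 2 libraries of a mouse share its RNA.

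Within groups the 10 genes did not vary as one. Over their 45 pairs, the median correlation of deviations between genes was 0.20 in RiboZero, 0.10 in PolyA and -0.02 in NoSelect, with ranges from -0.40 to 0.81, from -0.58 to 0.71 and from -0.66 to 0.90. Syt9 and Rassf10 went together in each preparation (0.72, 0.53 and 0.56). Rassf10 and Rras2, the closest genes on the opposite sides of Arntl, went in opposite directions in each (-0.34, -0.58 and -0.66). The deviations share the library and its normalisation, and these pairs were picked after their values were seen.

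Genes of the same families or pathways were taken from lists. Of 52 listed partners and relatives, 43 were tested in RiboZero, 44 in PolyA and 43 in NoSelect, and 0 were called higher in any of them (edgeR, adjusted p under 0.05), where 1.84%, 1.62% and 1.19% of all rows were. At lists of this size, a count of 0 is near those shares. Adm acts on a receptor made of Calcrl and Ramp2 or Ramp3. None of these was called, and Ramp1, which was also listed, was not called either. Calcrl was at 0.23 ± 0.0701 on the log2 scale in RiboZero (adjusted p = 0.108 in edgeR). Of the 4 genes listed with hemopexin, Lrp1, the receptor that takes up the complex of hemopexin and haem, fell in each preparation. Its log2 differences were -0.32 ± 0.0571 in RiboZero, -0.45 ± 0.0939 in PolyA and -0.34 ± 0.0589 in NoSelect (adjusted p = 0.00745, 0.0171 and 0.0257 in edgeR). Haptoglobin (Hp), haem oxygenase (Hmox1) and Cd163 were not called, at 0.16, -0.09 and -0.09 in RiboZero.

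Among the 15 other synaptotagmins, of which 9, 11 and 9 were tested, Syt7, which acts in calcium-triggered exocytosis of lysosomes and granules, fell by 0.48 ± 0.0538, 0.50 ± 0.0802 and 0.49 ± 0.0767 (adjusted p = 0.000279, 0.00393 and 0.0173 in edgeR). Syt2 was also called lower, in PolyA alone. Lower calls made up 1.63%, 2.41% and 0.981% of all rows, against 2 of 43, 3 of 44 and 2 of 43 of the listed genes. Of 5 Ras subfamily genes, 3 other TRIM-NHL genes, 7 other Plekha genes, 9 NLRP and inflammasome genes and the SoxD genes Sox5 and Sox13, none that was tested was called. The medians of these lists lay between -0.15 and 0.12. The 3 relatives of Rassf10 in the RASSF group, Rassf7, Rassf8 and Rassf9, had medians of 0.17, 0.16 and 0.18 with none called, and Rassf9 stood at 0.37 ± 0.109, 0.41 ± 0.138 and 0.35 ± 0.0869 (adjusted p = 0.0888, 0.132 and 0.0928 in edgeR).

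Rows most like the 10 in profile included genes of other chromosomes. Over the 32 libraries, with log2 CPM centred in each preparation, the mean standardised profile of the 10 was matched closely by Liph, a phospholipase gene on chromosome 16 (Pearson r = 0.97), and Cry1, a Cryptochrome gene on chromosome 10 (0.965). The 10 themselves correlated with their mean at 0.821 (Rras2) to 0.956 (Syt9 and Syt17). The profile is dominated by the genotype, since the 10 were chosen for it. The log2 differences of KO and WT in RiboZero were 0.65 ± 0.0608 for Liph and 1.53 ± 0.0763 for Cry1.

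Among listed markers of lung cell types, single genes were called between the genotypes, and only Sftpa1 was called in all 3 preparations. Of all rows, 1.84%, 1.62% and 1.19% were called higher in RiboZero, PolyA and NoSelect, and 1.63%, 2.41% and 0.981% lower. In bulk tissue, fewer cells of a type and less RNA per cell cannot be told apart. Of 5 alveolar type 2 markers, Sftpa1 fell in each preparation, by 0.49 ± 0.0876 in RiboZero on the log2 scale (adjusted p = 0.00776 in edgeR), and the other 4 were not called. The summed level of these 5 ran from 7750 to 9990 CPM in WT and from 6900 to 9730 CPM in KO RiboZero libraries. Of 4 type 1 markers, Ager rose in RiboZero (0.23 ± 0.0577, adjusted p = 0.0435 in edgeR) and the sum ran from 1430 to 1690 CPM in WT and from 1640 to 1890 CPM in KO. Of 4 endothelial markers, which mark cells that make Adm, 0 were called, and the sum ran from 1590 to 1910 CPM in WT and from 1730 to 2150 CPM in KO. Of 4 neuronal or neuroendocrine markers, Syp fell in RiboZero (-0.50 ± 0.108) and PolyA (-0.54 ± 0.076). The sum lay at 3.3 to 3.97 CPM in WT and 2.09 to 3.16 CPM in KO RiboZero libraries. Most of it was Syp (3.07 and 2.17 CPM on average in WT and KO), the only 1 of the 4 that passed the filter there. Among fibroblast markers Col1a1 rose in NoSelect (0.54 ± 0.098, adjusted p = 0.0299 in edgeR), and among macrophage markers Mrc1 fell in PolyA (-0.38 ± 0.0927, adjusted p = 0.0401 in edgeR). The 3 mesothelial markers had median log2 differences of -0.48, -0.57 and -0.74 in RiboZero, PolyA and NoSelect and the 3 club markers 0.28, 0.26 and 0.33, with none called. The club sums did not overlap in NoSelect, at 8730 to 11900 CPM in WT and 12200 to 14900 CPM in KO. Nor did the fibroblast sums there, at 682 to 834 and 860 to 968 CPM. The same held for the mesothelial sums (50.7 to 107 and 29.1 to 49.7 CPM) and the neuronal sums (3.5 to 4.57 and 2.12 to 3.18 CPM). With 4 mice per genotype, 5.09% of all single rows separated upward in KO. The part of these markers in the values of the 10 genes was not tested.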

How the data were processed

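Per the submitters' processing notes, the authors used Salmon 1.4.0, UMI-tools 1.1.1 and GRCm38, and the authors deposited 1 table of estimated counts, 32 columns wide, 1 per library. Per the labels' protocols, the kits were stranded, input was 200 ng (15 ng for NoSelect, where 6 preparations per mouse were combined) and libraries had 11 cycles of PCR. Annotation and duplicate handling are not given in the sources used here. Of the values, 12.81% were not whole, and they were rounded. Symbols, positions and exon lengths came from GENCODE M21 for 37649 rows.

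Each preparation was fitted with edgeR 4.0.16 (R 4.3.3; TMM, filterByExpr, quasi-likelihood test) and p-values were adjusted over all tested rows by Benjamini-Hochberg. A call is an adjusted p under 0.05, and between preparations also a log2 difference of at least 1. SE is the log2 difference over the square root of F. Within a preparation, replicates are separate mice, so the p-values of KO against WT measure the spread between mice. The main fits between preparations, and of the interaction, leave the mouse out and treat libraries of the same mouse as independent. Tested on simulated data, the fits recovered 80.5% (RiboZero), 76% (PolyA) and 77% (NoSelect) of 200 rows changed by a log2 of 1. No library pair agreed within counting noise (chi-square per degree of freedom 7.02 to 69.9 over 72 pairs). Libraries of the same mouse deviated together (r = 0.545 to 0.784 over 14359 rows), so the mouse is a block in an alternative fit.

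The 10 genes and all lists were chosen with earlier results of these data known. Other named genes are rows within 10 Mb that every preparation called in 1 direction, the nearest tested neighbours, the partner lists and the 3 rows most like the 10 in profile (1 of them is not reported here), and further rows of the region were named after their values were seen.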

Additional observations from a re-analysis of the deposited data

Results flagged for a closer look

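For the 10 genes and Arntl, 66 groups of libraries were searched for a library standing apart by Dixon's ratio, which chance alone gives in about 1 group in 20, and 4 were found. Nlrp10 in the NoSelect library of WT mouse 6 was at 0.788 CPM against 0.396 to 0.426 CPM in the other WT mice, on 11 to 29 counts in that preparation. Plekha7 in the RiboZero library of KO mouse 6, the mouse with Y-linked transcripts, was at 18.2 CPM against 22.9 to 25.0 CPM in the other KO mice. Without KO mouse 6 the log2 difference of Plekha7 in RiboZero was 0.80, against 0.74 with it. Plekha7 in the NoSelect library of WT mouse 3 was at 21.9 CPM against 12.8 to 13.3 CPM, and the same mouse was the highest WT mouse in RiboZero (18.7 CPM) and PolyA (17.7 CPM). Syt17 in the PolyA library of KO mouse 3 was at 2.08 CPM against 2.98 to 3.48 CPM, and this mouse was also the lowest KO mouse in RiboZero (4.06 CPM) and NoSelect (4.24 CPM).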

How the results depend on the processing

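No log2 difference of the 10 genes between KO and WT changed sign in any alternative run, while the number passing the threshold moved. Of the 10 genes, 10, 9 and 7 were called higher in RiboZero, PolyA and NoSelect. With mice 3 to 6 alone, 4 were called in RiboZero and 6 in PolyA. Leaving out each library in turn gave 6 to 9 in RiboZero (6 without KO mouse 2 and without WT mouse 5), 9 to 9 in PolyA and 1 to 6 in NoSelect (3 without KO mouse 4 or WT mouse 4, 2 without KO mouse 5, 1 without WT mouse 5 or WT mouse 6). Without KO mouse 6 the counts were 8, 9 and 5.

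Rows called higher within 10 Mb of Arntl numbered 16, 14 and 9. With mice 3 to 6 alone they were 4 in RiboZero and 7 in PolyA, within 5 Mb they were 7, 6 and 4, and by DESeq2 1.42.0 they were 16 in NoSelect and 19 in both others. Leaving out each library in turn gave 10 to 15 in RiboZero (10 without KO mouse 2 and without WT mouse 5), 12 to 19 in PolyA and 1 to 10 in NoSelect (4 without KO mouse 4, 3 without WT mouse 4, 2 without KO mouse 5, 1 without WT mouse 5 or WT mouse 6).

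WT and KO mice share only a replicate number. Their same-number deviations correlated at -0.127 to 0.314 in RiboZero, -0.157 to 0.329 in PolyA and -0.211 to 0.126 in NoSelect, so the numbers do not pair them. With the replicate number as a block, 6, 9 and 0 of the 10 genes and 11, 15 and 0 rows within 10 Mb were called in RiboZero, PolyA and NoSelect. The mouse pairs the preparations, and with it as a block 2, 0 and 2 of the 10 passed both limits (PolyA against NoSelect, RiboZero against NoSelect, PolyA against RiboZero) and 0 passed the interaction, as in every other alternative run.

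Depth limits Nlrp10, Hpx and Syt9 most, on 7 to 40, 13 to 64 and 17 to 72 counts per RiboZero library. Settings not named here left each count of calls within 1.5 times its value. Causes of the moves were not tested beyond the smaller number of mice in the fits that leave some out.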
